A study of Mus musculus with 8 samples.

Results

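The genes examined here are p53 (gene symbol Trp53) and 9 genes known as its transcriptional targets, namely Mdm2, Bbc3, Gadd45a, Fas, Aen, Ei24, Tnfrsf10b, Sesn2 and Trp53inp1. Members were all probe sets that the platform annotation assigns to 1 of these 10 genes alone, which gave 9 of 12393 genes, measured by 15 of 22626 probe sets. No probe set carried the name Trp53 in the annotation used here, so the p53 transcript itself was not analysed here. The study's own supplement does list Trp53, among DNA repair and DNA damage response genes that differed in dnBrg1 lenses. RNA came from whole lenses of mouse embryos at embryonic day 15.5 (E15.5), all on a mixed strain background. The 4 wild type samples carried no transgene, and the 4 dnBrg1 samples carried a transgene for dominant-negative Brg1 (gene symbol Smarca4), the catalytic subunit of SWI/SNF chromatin remodeling complexes, under the αA-crystallin promoter, which is active in lens fiber cells. The study took its transgenic animals from 1 founder line and used wild type littermates as controls. Each sample was 1 Affymetrix array, and the comparison asked which transcripts differed when Brg1 function was impaired shortly before fiber cells lose their nuclei.

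p53 is a transcription factor that is held at a low level by Mdm2, the ubiquitin ligase that marks it for degradation and whose own gene p53 activates. Stress such as DNA damage stabilizes p53, which then raises transcripts for cell cycle arrest and repair (Gadd45a), for cell death (Bbc3, Fas, Tnfrsf10b, Aen, Ei24) and for metabolic control and autophagy (Sesn2, Trp53inp1). In the lens, loss of growth control in fiber cells is known to trigger p53-dependent apoptosis, while normal fibers remove their nuclei without dying. The study reports that it saw neither apoptosis (data not shown there) nor a return to the cell cycle in dnBrg1 fiber cells. Whole lenses were measured, so fewer cells of a type and less RNA per cell cannot be told apart.

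Several properties of the arrays differed between or within the groups. Array controls for the 3' and the 5' end of the Gapdh and β-actin transcripts gave a mean 3' minus 5' difference (log2) of 1.90, 2.66, 1.43 and 2.20 in wild type replicates 1 to 4. It lay between 0.59 and 0.65 in the dnBrg1 samples (two-sided exact permutation p = 0.0286 for each control, the smallest that 70 assignments allow). A fit with this difference as a covariate is called the control covariate below. Since the covariate separates the genotypes, losing a call under it is no measurement of an equal level. The fiber cell crystallin gene Cryaa read 14.19 to 14.34 on the 8 arrays. Of the probe sets for Smarca4, which the transgene encodes, 1 rose (2.35 ± 0.21, adjusted p = 4.81e-05) and the other did not pass (-0.24 ± 0.11, adjusted p = 0.116). The descriptions name polysome bound RNA for all samples but dnBrg1 replicates 3 and 4. Among 8 macrophage markers 3 rose and 2 fell, and their summed intensity ran from 8091 to 9873 in wild type and from 2336 to 4710 in dnBrg1 lenses. Csf1r (log2 fold change -2.13) and C1qb (-2.15) fell, and Cx3cr1 (0.71), Lyz2 (0.90) and Fcgr3 (0.60) rose, so the list moved both ways. In dnBrg1 replicate 1 the epidermal genes Sfn (8.54) and Perp (12.8) stood above all other samples. Skeletal muscle markers summed to 379 to 755 in wild type and 528 to 4232 in dnBrg1 lenses. The part of these differences in the results was not tested.

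Promoters of the members were searched for the p53 binding consensus of 10 bases, which p53 recognizes as a tandem pair. Windows of 300 bases from RefSeq (build GRCm38.p6), from 250 before to 50 after a transcript start, were found for 8 of the 10 genes, in 11 windows. An exact match stood in 6 of the 11 windows, which belong to 5 genes (Trp53, Mdm2, Gadd45a, Aen and Ei24). Of 32851 promoter windows of the genome 8.36% held one. Windows of Bbc3, Fas and Sesn2 held no exact match. A near match, with at most 1 letter off outside the central bases, stood in 7 of the 11 windows and in 39.6% of all promoter windows. No member window held a pair of near matches spaced by up to 13 bases, and 1.39% of all promoter windows did. Sequence outside these windows was not searched. Such a match is a description of the letters and not a binding site. Shown are the 4 measured genes with an exact match, in capitals, and Sesn2 as a window without one. Of the genes without an exact match Bbc3 and Fas were called higher, and Sesn2 had a probe set called in each direction.
Mdm2 (chr10:117710709-117711008, minus strand): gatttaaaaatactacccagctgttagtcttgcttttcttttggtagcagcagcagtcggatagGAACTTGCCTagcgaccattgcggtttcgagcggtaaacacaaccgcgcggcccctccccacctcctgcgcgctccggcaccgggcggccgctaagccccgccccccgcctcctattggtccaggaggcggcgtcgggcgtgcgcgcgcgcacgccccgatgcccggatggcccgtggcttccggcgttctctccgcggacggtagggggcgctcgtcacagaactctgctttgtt
Gadd45a (chr6:67037358-67037657, minus strand): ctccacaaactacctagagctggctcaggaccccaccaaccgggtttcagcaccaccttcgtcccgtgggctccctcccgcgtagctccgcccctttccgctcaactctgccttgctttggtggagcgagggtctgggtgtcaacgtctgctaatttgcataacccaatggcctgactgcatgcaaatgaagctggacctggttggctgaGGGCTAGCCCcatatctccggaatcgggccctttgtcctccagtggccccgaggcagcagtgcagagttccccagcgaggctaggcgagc
Aen (chr7:78895808-78896107, plus strand): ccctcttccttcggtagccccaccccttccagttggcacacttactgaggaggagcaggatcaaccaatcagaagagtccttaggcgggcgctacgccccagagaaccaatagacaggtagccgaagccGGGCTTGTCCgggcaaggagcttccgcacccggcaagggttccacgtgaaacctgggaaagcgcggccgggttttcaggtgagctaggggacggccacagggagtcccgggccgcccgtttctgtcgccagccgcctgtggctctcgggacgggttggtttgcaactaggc
Ei24 (chr9:36797285-36797584, minus strand): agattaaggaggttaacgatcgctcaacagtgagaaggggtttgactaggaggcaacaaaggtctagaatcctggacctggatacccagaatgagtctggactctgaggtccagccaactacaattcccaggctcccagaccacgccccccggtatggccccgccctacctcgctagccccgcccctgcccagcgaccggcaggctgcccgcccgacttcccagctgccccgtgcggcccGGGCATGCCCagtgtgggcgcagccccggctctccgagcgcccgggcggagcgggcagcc
Sesn2 (chr4:132510407-132510706, minus strand): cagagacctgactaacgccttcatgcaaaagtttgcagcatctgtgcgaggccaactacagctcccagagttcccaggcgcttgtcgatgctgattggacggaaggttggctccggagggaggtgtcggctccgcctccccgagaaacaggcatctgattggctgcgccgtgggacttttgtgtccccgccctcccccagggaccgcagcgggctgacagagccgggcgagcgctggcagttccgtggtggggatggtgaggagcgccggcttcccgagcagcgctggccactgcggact

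The match began 186 bases before the start in Mdm2, 40 bases before it in Gadd45a, 121 bases before the later start of Aen and 10 bases before it in Ei24. The earlier Aen window overlaps the later one and holds the same match.

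Targets of p53 moved in both directions in dnBrg1 lenses. Of the 15 probe sets 7 were called higher and 3 lower, and 5 did not pass the test (limma, Benjamini-Hochberg adjusted p under 0.05 over all probe sets). Over all probe sets 40.8% were called, 19.8% higher and 21% lower. The groups did not overlap for 10 of the 15, against 40.1% of all probe sets. Since the members were chosen with results of these data known, these shares are a description. The median log2 fold change (dnBrg1 over wild type) was 0.41 over the 15 probe sets and -0.08 over all. Gadd45a, Bbc3, Fas, Aen and Ei24 rose on the brightest probe set of each gene, Tnfrsf10b, Sesn2 and Trp53inp1 fell, and Mdm2 did not pass. Below, values are log2 intensities in replicates 1 to 4, and a value after ± is the standard error of a log2 fold change unless SD is named.

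**Figure D1:**
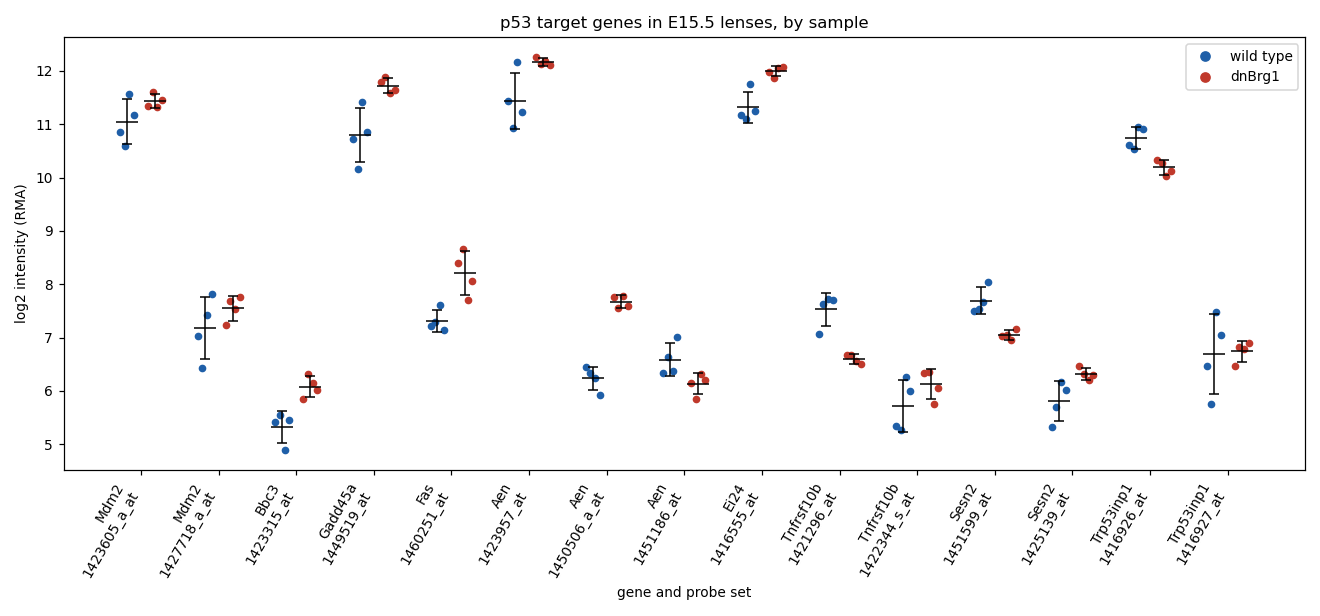
Points give the log2 intensity (vertical axis) of every sample, blue for wild type and red for dnBrg1, on the 15 probe sets of p53 target genes (horizontal axis), with mean and SD in black (n = 4). Gadd45a and Ei24 lie higher, and the brighter probe sets of Trp53inp1 and Tnfrsf10b lower, in all 4 dnBrg1 samples.

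Mdm2, the negative regulator and feedback target of p53, did not pass the test with either probe set. With the brighter one wild type lenses read 10.85, 10.59, 11.57 and 11.16, and dnBrg1 lenses 11.34, 11.60, 11.31 and 11.45. The groups overlapped, because wild type replicate 3 lay above 3 of the 4 dnBrg1 samples. The log2 fold change was 0.38 ± 0.20 (adjusted p = 0.148), with a 95% interval from -0.06 to 0.82. Without wild type replicate 3 it was called higher (log2 fold change 0.56, adjusted p = 0.0165). The dimmer probe set had a like difference (0.38 ± 0.27, adjusted p = 0.283), with wild type values from 6.44 to 7.81 and dnBrg1 values from 7.23 to 7.75. Without wild type replicate 2 the values were 0.23 and 0.13 for the brighter and the dimmer probe set.

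Gadd45a, which encodes a growth arrest and DNA damage protein that binds PCNA and Cdk1, was upregulated 1.91-fold. Wild type lenses read 10.73, 10.17, 11.41 and 10.86, and dnBrg1 lenses 11.78, 11.88, 11.59 and 11.63. All 4 dnBrg1 samples lay above all wild type samples, of which replicate 3 came nearest. The log2 fold change was 0.93 ± 0.23 (adjusted p = 0.00944). The value turned to -0.36 with the control covariate and did not pass (adjusted p = 0.516).

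Ei24, an endoplasmic reticulum protein gene first found as induced by etoposide through p53, was upregulated 1.60-fold. Wild type lenses read 11.17, 11.10, 11.75 and 11.25, and dnBrg1 lenses 11.98, 11.87, 12.06 and 12.07. The groups did not overlap (log2 fold change 0.68 ± 0.15, adjusted p = 0.00544). Wild type replicate 3 was the highest of its group, and the spread was 0.29 in wild type and 0.09 in dnBrg1 lenses (SD, n = 4). Under the control covariate the value was -0.014 ± 0.25 (adjusted p = 0.982).

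Aen encodes an exonuclease that acts in p53-dependent apoptosis, and its 3 probe sets behaved differently. The brightest was called higher (0.73 ± 0.23, adjusted p = 0.0287). Its wild type values were 11.43, 10.92, 12.16 and 11.22 and its dnBrg1 values 12.26, 12.13, 12.18 and 12.10. The groups overlapped through wild type replicate 3, and the call was lost without any 1 of the other 7 samples.

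The second brightest Aen probe set had the largest difference among the 15. Wild type lenses read 6.44, 6.33, 6.25 and 5.93, and dnBrg1 lenses 7.77, 7.55, 7.79 and 7.60, a 2.71-fold increase without overlap (1.44 ± 0.13, adjusted p = 4.97e-05). It was called in all 19 alternatives that tested it with adjustment, the control covariate included (1.39 ± 0.32, adjusted p = 0.0435). The third read lower in all dnBrg1 samples (5.86 to 6.32) than in wild type (6.34 to 7.02) but did not pass (-0.45 ± 0.17, adjusted p = 0.0596). It was called lower with arrays centred on their medians (adjusted p = 0.0366), with quantile normalization (0.0498) and without wild type replicate 1 (0.0467) or 3 (0.041). The transcript parts that the probe sets match are not given in the sources used here.

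Bbc3 encodes Puma, a BH3-only protein that triggers mitochondrial apoptosis. Wild type lenses read 5.42, 5.55, 4.89 and 5.45, and dnBrg1 lenses 5.85, 6.31, 6.14 and 6.02. All dnBrg1 samples were higher, by 1.69-fold (log2 fold change 0.76 ± 0.16, adjusted p = 0.00533). Wild type replicate 3 was the lowest sample here, unlike for Gadd45a, Ei24 and the brightest Aen probe set. Under the control covariate the difference was larger and passed (1.49 ± 0.30, adjusted p = 0.0325). All 8 Bbc3 values were above the highest of the bacterial array controls that are not spiked (3.39), as held for all 15 member probe sets. The mean of Bbc3 lay below the median of all probe sets, at percentile 31.9. With dnBrg1 replicates 1 and 2 alone Bbc3 just missed the threshold (adjusted p = 0.0507).

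Of the 2 death receptors, Fas was higher and Tnfrsf10b lower in dnBrg1 lenses. Fas, the receptor for Fas ligand, read 7.21, 7.29, 7.62 and 7.14 in wild type and 8.39, 8.65, 7.71 and 8.07 in dnBrg1 lenses. It was upregulated 1.86-fold without overlap (0.89 ± 0.20, adjusted p = 0.00645). It was the only one of the 15 probe sets with a larger SD in dnBrg1 (0.41) than in wild type (0.21; n = 4 each), and the call was lost with dnBrg1 replicates 3 and 4 alone and with the control covariate (0.58 ± 0.50, adjusted p = 0.527).

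Tnfrsf10b, the mouse receptor for the ligand TRAIL, fell with its brighter probe set, 1.90-fold. Wild type lenses read 7.07, 7.63, 7.72 and 7.71, and dnBrg1 lenses 6.68, 6.68, 6.56 and 6.50. The groups did not overlap, and the difference (-0.93 ± 0.15, adjusted p = 0.00119) was called in all alternatives but the control covariate, where it was of like size (-0.84 ± 0.38, adjusted p = 0.222). The second probe set, of the kind whose probes are shared between transcripts, was dimmer and overlapped between the groups (0.41 ± 0.24, adjusted p = 0.203). Macrophage markers, which moved between the groups as given above, were not tested for a part in either receptor's difference.

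Sesn2 encodes sestrin 2, an inhibitor of mTORC1 signaling, and its probe sets were called in opposite directions. The brighter read 7.49, 7.54, 7.67 and 8.05 in wild type and 7.03, 7.04, 6.95 and 7.16 in dnBrg1 lenses, a decrease of 1.56-fold (-0.64 ± 0.13, adjusted p = 0.00446). The dimmer rose from 5.33, 5.70, 6.18 and 6.02 to 6.47, 6.32, 6.21 and 6.30 (0.52 ± 0.18, adjusted p = 0.0409). Neither probe set overlapped between the groups. The decrease was lost only with the control covariate, at the same size (-0.64 ± 0.33, adjusted p = 0.28), and the increase was called in 6 of 19 alternatives. It was lost without wild type replicate 1 or 2 and without any 1 dnBrg1 sample. The direction of the Sesn2 transcript was therefore not settled between its probe sets.

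Trp53inp1, a p53-induced nuclear protein that also acts in autophagy, fell with its brighter probe set. Wild type lenses read 10.62, 10.53, 10.94 and 10.90, and dnBrg1 lenses 10.33, 10.27, 10.03 and 10.13. All dnBrg1 samples were lower, by 1.47-fold (-0.56 ± 0.13, adjusted p = 0.00726). Its value with the control covariate was -0.91 (adjusted p = 0.0951). The call was also lost with the described RNA fraction as a covariate (-0.45, adjusted p = 0.0622) and with dnBrg1 replicates 1 and 2 alone (adjusted p = 0.094). The dimmer probe set showed no call (0.05 ± 0.32, adjusted p = 0.907), with wild type values spread from 5.76 to 7.48 around the dnBrg1 values of 6.46 to 6.90.

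**Figure D2:**
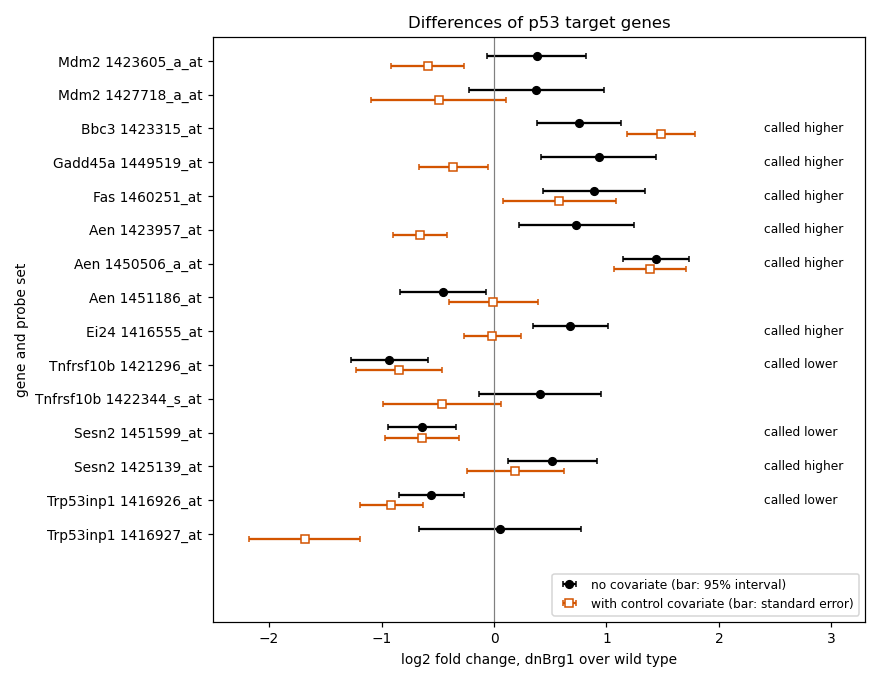
Log2 fold change of dnBrg1 over wild type (horizontal axis) for the 15 probe sets (vertical axis), without covariate (black, 95% interval) and with the control covariate (orange, standard error). The words at the right give the call without covariate. Bbc3 and the second Aen probe set stay above 0 in both fits, and Gadd45a and the brightest Aen probe set change sign.

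Wild type lenses varied more than dnBrg1 lenses in most of these genes. The SD was larger in wild type for 14 of the 15 probe sets, with medians of 0.315 and 0.134, while over all probe sets it was larger in wild type for 70.1% (medians 0.229 and 0.151). Wild type replicate 3 was the highest wild type sample for 10 probe sets and replicate 2 the lowest for 8. Replicate 3 also had the smallest and replicate 2 the largest 3' minus 5' difference of the controls. Of the 6 probe sets at or above the median of all, 5 (Mdm2, Gadd45a, Aen, Ei24 and Trp53inp1) had replicate 3 highest and replicate 2 lowest of wild type. For Mdm2, Gadd45a, Aen and Ei24 the dnBrg1 mean lay above the wild type mean, and for Trp53inp1 all dnBrg1 samples lay below wild type, nearest to replicate 2 and farthest from replicate 3. The calls of Gadd45a, Ei24 and this Aen probe set turned sign with the control covariate, with none called in the new direction. Of all 15 probe sets only Bbc3 and the second Aen probe set were called with it, both higher, where 6.37% of all probe sets were called (3.57% higher and 2.8% lower). Both were dim, with means at percentiles 31.9 and 43.1 of all probe sets.

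**Figure D3:**
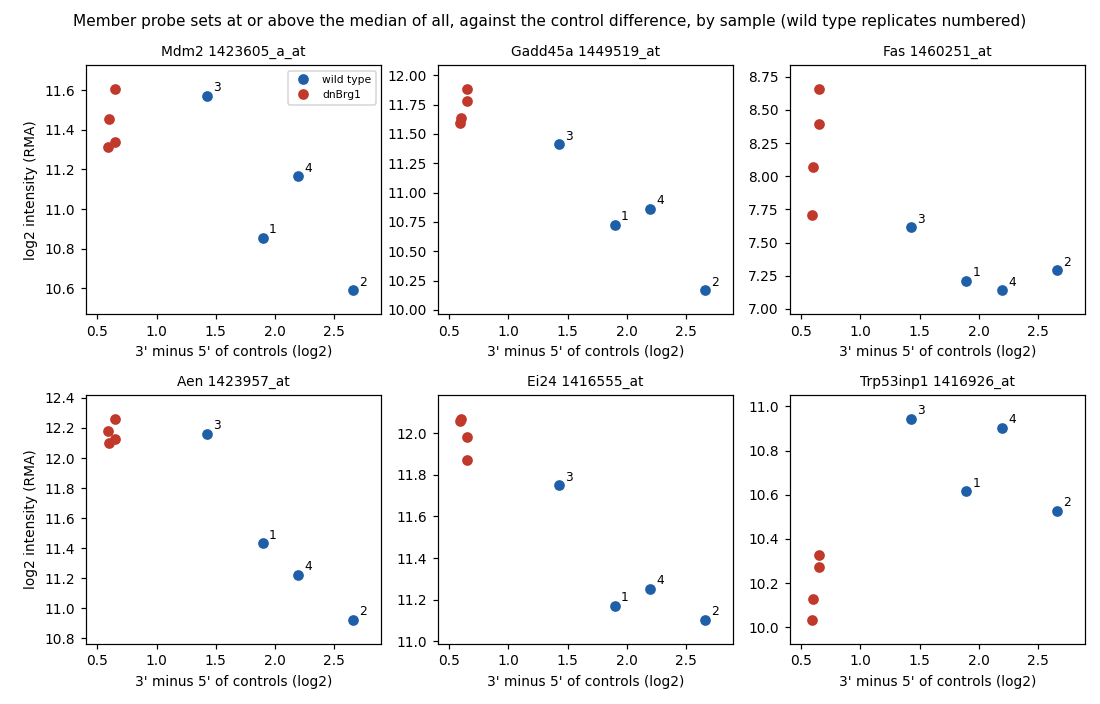
Log2 intensity (vertical axis) of the 6 probe sets of p53 targets at or above the median of all against the array controls' mean 3' minus 5' difference (horizontal axis, log2), for each wild type (blue, replicate numbers beside the points) and dnBrg1 (red) sample. Vertical axes differ between panels and do not start at 0. Wild type replicate 3 (1.43) is nearest to the dnBrg1 level and replicate 2 (2.66) farthest for Gadd45a and Ei24, and the reverse holds for Trp53inp1.

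Other genes of the p53 network were taken from a list of 80 genes by role, of which 70 had a probe set naming them alone; Bax was among the 10 without one. On the brightest probe set of each gene 17 rose and 16 fell, and 37 did not pass, a share called of 47.1% beside 40.7% of all genes (17.5% higher and 23.3% lower). When the probe sets of a gene were averaged instead, 21 rose and 12 fell. The median log2 fold change on the brightest probe set was -0.01, beside -0.11 over all genes. The 61 genes of the list outside the members counted 12 higher and 13 lower, 41% in all. With the control covariate 3 genes of the list were called, all higher: Bbc3, Cop1 and Atm.

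Negative regulators of p53 had 4 increases and no decrease among 10 genes, so 40% were called higher where 17.5% of all genes were. In either direction 40.7% of all genes were called. The ubiquitin ligase genes Cop1 (log2 fold change 1.10 ± 0.10, adjusted p = 4.61e-05), Trim24 (0.88 ± 0.12) and Rchy1 (0.56 ± 0.09), whose products target p53, rose. Aurka, a mitotic kinase that phosphorylates p53, rose as well (0.96 ± 0.17). The second, dimmer probe set of Trim24 was at -0.03 (adjusted p = 0.889). Mdm4, the partner of Mdm2, did not pass (0.60 ± 0.23, adjusted p = 0.0646), though it was called higher without wild type replicate 3 (0.82, adjusted p = 0.00425), and Ccng1, a feedback target of p53, was at -0.21 (adjusted p = 0.253).

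Upstream activators of p53 were split, with 4 increases and 3 decreases among 11 genes. The share called was 63.6%, beside 40.7% of all genes (17.5% higher and 23.3% lower). Atm, the kinase that signals double-strand breaks, rose from 6.07 ± 0.46 (SD, n = 4) to 7.23 ± 0.21 (SD, n = 4), a difference of 1.17 ± 0.22 (adjusted p = 0.00243). Hipk2, a kinase that phosphorylates p53 in apoptosis, rose with its brightest probe set (1.15 ± 0.18), and of its other 4 probe sets 3 rose and 1 fell (-1.31). Chek2, the checkpoint kinase downstream of Atm, fell (-0.99 ± 0.16), as did Crebbp, an acetyltransferase for p53 (-1.05 ± 0.12).

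Cell cycle targets counted 2 increases and 1 decrease among 9 genes, a share called of 33.3% beside 40.7% of all genes. Cdkn1a, the p21 gene and main arrest target, did not pass with either probe set (-0.52 ± 0.27, adjusted p = 0.144, and -0.05, adjusted p = 0.75). Without wild type replicate 2 the first value was -0.26. Plk2, a stress-induced polo-like kinase, rose (0.85 ± 0.10) beside Gadd45a, and Gtse1, which restrains p53 in G2, fell (-0.46 ± 0.15, adjusted p = 0.0337). The Gtse1 call was lost without wild type replicate 1 or any 1 dnBrg1 sample.

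Among 15 apoptosis targets 5 rose and 3 fell, a share called of 53.3% beside 40.7% of all genes. Outside the genes described above, Siva1, a proapoptotic adaptor, fell on 3 of its 4 probe sets (-0.74 ± 0.12 on the brightest) and was at 0.12 on the other (adjusted p = 0.65), and Pmaip1, which encodes the BH3-only protein Noxa, did not pass (0.14 ± 0.20, adjusted p = 0.588). The repair targets held 3 decreases and no increase among 6 genes, where 23.3% of all genes fell. Xpc, which recognizes DNA damage (-1.05 ± 0.21), and Polh, a translesion polymerase (-0.93 ± 0.20), fell. Ddb2, another damage sensor, fell with its brighter probe set (-0.34, adjusted p = 0.0484) and rose with the dimmer (0.96, adjusted p = 0.00116). Its direction was therefore not settled between the probe sets. That decrease of Ddb2 was no longer called when wild type replicate 1, 2 or 4 or dnBrg1 replicate 1, 3 or 4 was left out.

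Metabolic and stress targets counted 1 increase and 4 decreases among 8 genes, a share called of 62.5% beside 40.7% of all genes. Ddit4, an inhibitor of mTORC1, rose (0.76 ± 0.22), a call lost without wild type replicate 4 or dnBrg1 replicate 1. Foxo3, a transcription factor of stress resistance, fell (-0.93 ± 0.10). Prkab1, an AMPK subunit gene, fell with its brighter probe set (-0.78 ± 0.22), a call lost without dnBrg1 replicate 4. The dimmer Prkab1 probe set rose (1.51, adjusted p = 0.000951), so the direction of Prkab1 was not settled either. Of the 9 other targets 33.3% were called. They held 1 increase, Igfbp3, which encodes a secreted binder of insulin-like growth factors (1.39 ± 0.22), and 2 decreases. These were Pml, a nuclear body gene (-0.46 ± 0.12), and Dcxr, a reductase gene (-0.52 ± 0.17), the last not called without wild type replicate 1 or 2 or dnBrg1 replicate 1 or 2. Of the 33 network genes called, 11 turned sign with the control covariate, among them Xpc (0.11), Gtse1 (0.050), Prkab1 (0.39) and Ddit4 (-0.46), and none of the 11 passed there.

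**Figure D4:**
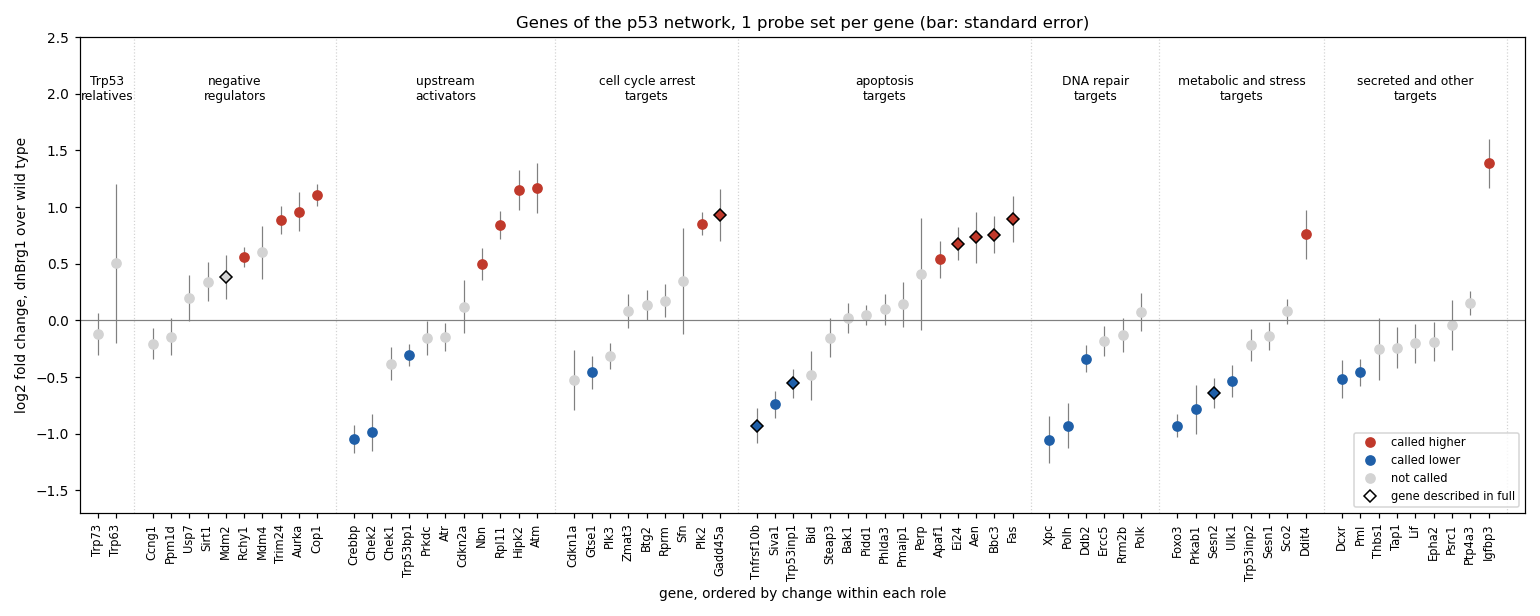
Log2 fold change of dnBrg1 over wild type (vertical axis) on the brightest probe set of 70 genes of the p53 network (horizontal axis), grouped by role. Red and blue points were called higher (17 genes) and lower (16 genes), grey points were not called, diamonds are the genes described in full, and bars are standard errors.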

How the data were processed

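Lens RNA (50 ng, NuGEN amplification) of 4 wild type and 4 dnBrg1 samples at E15.5 was hybridized to Affymetrix arrays. Groups followed the labelled genotype. The authors deposited linear intensities made with RMA (version not given in the sources used here), which makes the arrays' distributions alike and removes a shift shared by most transcripts; they were taken to log2. Array medians ran from 196.9 to 209.1 in intensity. Precision is limited by having 4 arrays a group. The free-text description names polysome bound RNA for 6 samples and total RNA alone for dnBrg1 replicates 3 and 4, which was treated as an alternative.

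Of 22690 probe sets, 64 controls were left out. Of the rest, 20380 name 1 gene, 691 several and 1555 none in the annotation used; Entrez identifiers changed no symbol. Using limma 3.58.1 (lmFit, eBayes) in R 4.3.3, log2 values were fitted as dnBrg1 minus wild type without filter or covariate. p-values measure the spread between samples, and controls were compared by an exact permutation test over 70 assignments. The limma fit was tested on simulated data, where it recovered 19% of 1.5-fold and 81% of 2-fold changes among 22626 probe sets. The spread and the share of changed probe sets set there are not given here. These recoveries are therefore no measure of what the fit recovers in the real data. Named genes were all member probe sets and, from the network list, up to 4 called genes per role with the largest change. Mdm4, Cdkn1a, Ccng1, Pmaip1, Atm, Trp63 and Trp73 were always named. Bax had no probe set naming it alone in the annotation used. The planned neighbors of Trp53 could not be picked, since Trp53 itself had no probe set there. Further probe sets of the named genes, Sfn, Perp and the macrophage genes were named after their values were seen. Members and lists were chosen with earlier results of these data known. Marker lists covered lens, neuron, mesenchyme, endothelium, macrophage, muscle, erythroid and pigment cells. Alternatives covered scaling, offset, dim probe sets, prior, weights, covariates, the replicate block, sample subsets and the methods' test. Replicate numbers did not pair the samples. Promoters were from RefSeq (GRCm38.p6).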

Additional observations from a re-analysis of the deposited data

Results flagged for a closer look

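Of 86 sets of 4 samples examined for a single sample far from the others, 4 had one, about as many as the 1 in 20 that chance gives. The brighter probe set of Tnfrsf10b was at 7.07 in wild type replicate 1, below the others (7.63 to 7.72), and was still above every dnBrg1 sample. Chek2 was at 7.48 in dnBrg1 replicate 3, above the others of that group (7.22 to 7.25). Trp63, the p53 relative of stratified epithelia, was at 8.47 in dnBrg1 replicate 1 and between 5.15 and 5.61 in the other dnBrg1 samples. Trp73, the other relative, was at 5.38 in the same sample and between 4.57 and 4.64 in the others. Neither relative was called between the groups (Trp63 0.50 ± 0.70, adjusted p = 0.591; Trp73 -0.12 ± 0.19, adjusted p = 0.635), and without dnBrg1 replicate 1 the Trp63 value was -0.27.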

How the results depend on the processing

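The count of 10 member probe sets called ran from 8 to 12 with each sample left out, and that of 33 network genes from 26 to 38. Over all probe sets the count of 9229 ran from 7700 to 10172. With the control covariate the counts were 2, 3 and 1442. With dnBrg1 replicates 1 and 2 alone they were 5, 19 and 5640, and with replicates 3 and 4 alone 6, 21 and 5936. The described RNA fraction as a covariate gave 7, 24 and 6557. Median centring and quantile normalization each called 7 member probe sets higher and 4 lower, beside 9676 and 9089 of all 22626 probe sets. Among probe sets at or above the median (6 of the 15) 5 members were called, beside 6574 of all 11313 such probe sets. At an adjusted p under 0.01 the count over all probe sets was 6031. The methods' t-test called 10 member probe sets unadjusted and 8 after Benjamini-Hochberg adjustment, beside 10617 and 8245 of all. With the replicate block 9 member probe sets, 28 network genes and 7963 of all were called; the numbers showed no pairing, with correlations between -0.19 and 0.16. The 15 member probe sets include 5 that were not called and so had no call to lose or turn. Over 291 values of all member probe sets under alternatives other than the control covariate none changed the sign of a call, and 29 lost one. With that covariate Gadd45a (-0.36), the brightest Aen probe set (-0.66), Ei24 (-0.014), Gtse1 (0.050), Xpc (0.11), Prkab1 (0.39) and Ddit4 (-0.46) turned, where the cause was not tested. The Gapdh control difference ran from -1.13 to -0.67 and that of β-actin from -2.14 to -1.77 with each sample left out; without any 1 dnBrg1 sample Gapdh did not pass (exact permutation p = 0.0571). Of the 15 probe sets 9 were below the median of all and so nearer to background.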

Other observations

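Genes of the p53 family and its targets that are also strong in surface epithelia were high together in 1 dnBrg1 sample. In dnBrg1 replicate 1 the log2 intensities were 8.47 for Trp63, 8.54 for Sfn (14-3-3σ) and 12.8 for Perp, a desmosomal protein. In the other 7 samples they ran from 5.10 to 6.76 for Trp63, from 6.18 to 6.55 for Sfn and from 10.3 to 10.7 for Perp. Sfn and Perp did not pass the test between the groups (adjusted p = 0.575 and 0.531). Without that sample 8 of the 15 probe sets of p53 targets were called, beside 7883 of all 22626 probe sets.

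Markers of other tissues also varied within the groups. Neuron and retina markers counted 1 increase and 4 decreases among 7 genes. By limma none of 6 mesenchyme, 6 muscle and 3 erythroid markers was called, while 2, 4 and 0 of them had an unadjusted p under 0.05, 1 of 4 pigment markers fell, and endothelial markers counted 2 increases and 2 decreases among 6. Of lens markers, 2 of 7 fiber genes rose and 1 fell, and 2 of 5 epithelial genes rose and 1 fell.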
